A study of Mus musculus with 21 samples.

Results

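Nephron progenitors of the mouse embryonic kidney were compared before and after a pulse of BIO, a small molecule that inhibits glycogen synthase kinase 3 and so stabilises beta-catenin. The comparison takes 6 of the 21 arrays of the series. The fresh group is 3 arrays of cells sorted at embryonic day E16.5 from kidneys that carry the Six2GFPcre BAC transgene, which makes a GFP-Cre fusion under the control of the progenitor gene Six2, and profiled without culture. The pulse group is 3 arrays of the same kind of sorted cells, which were spun into aggregates, kept in DMEM with 10% serum and 4 µM BIO for 24 h, and then moved to DMSO, the solvent, for another 24 h. All animals carried the transgene on a mixed strain background, and each array stood for 40000 cells. Of the other aggregates, 3 arrays each after DMSO for 24 h, BIO for 24 h and BIO for 48 h are set beside them where they show which part of a difference came in which day. Aggregates kept in DMSO for 48 h were not analysed here, so BIO, aggregation, serum and 48 h in culture cannot be told apart against fresh cells. The labels call the arrays biological replicates without naming litters. The p-values therefore measure the spread between samples within groups, pooled over all 21 arrays.

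In the developing kidney, progenitors of the cap mesenchyme express Six2 and either renew or respond to Wnt9b from the ureteric bud. Canonical Wnt signalling through beta-catenin starts the change to an epithelium: the cells turn on Wnt4, gather into a pretubular aggregate and form the renal vesicle. The vesicle expresses Lhx1, Pax8, Fgf8 and the Notch ligands Dll1 and Jag1, makes a lumen and a basement membrane, and goes on to pattern the podocyte, proximal tubule and distal segments. Beta-catenin signalling that stays on is known to hold the later of these steps back.

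After the pulse and a day without BIO, genes of the progenitor state were much lower than in fresh cells, and most of the listed pretubular aggregate and renal vesicle genes were higher. Of 27 measured progenitor genes, 20 fell and 1 rose. Across all 18193 genes tested, 12.1% fell and 13.2% rose at an adjusted p of 0.05 (limma, Benjamini-Hochberg), which is 2195 and 2407 genes. Of 23 measured renal vesicle genes, 13 rose and 1 fell. In each list, most of the calls were at least 2-fold: 17 of the progenitor genes fell and 12 of the renal vesicle genes rose by that much, against 4.41% and 4.55% of all genes (8.96% in either direction, and 25.3% with no minimum fold). The median difference was -2.0 on the log2 scale over the progenitor list and 1.10 over the renal vesicle list, against 0.02 over all genes. In aggregates after DMSO for 24 h, which had no BIO, the 2 list medians against fresh were -1.71 and -0.17. They were -0.93 and 0.48 after BIO for 24 h, and -1.30 and 0.71 after BIO for 48 h, with no test. Genes of later segments passed less often: 4 of 26 early segment genes rose and 4 fell. Of the 26, 8 were below background in both groups. The summed signal of this list was 7620 to 9818 in fresh and 10886 to 12715 in pulse samples. Beside these, 13 of 17 contractile and serum response genes rose and 1 fell.

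The fresh samples carried the markers their label calls for. Six2 gave signals of 8565 to 9270 on the fresh arrays, and the cap mesenchyme genes Cited1, Eya1, Gdnf and Itga8 were all above background, set at a signal of 41.9 from the bacterial control probe sets. Markers of other cells were present too. Foxd1, the defining gene of the cortical stroma, read 2084, 2097 and 2126, and the summed signal of the 18 stromal genes ranged from 40437 to 42400 in fresh and from 28949 to 30636 in pulse samples. The endothelial marker Pecam1 was below background on average in both groups, and the leukocyte marker Ptprc read 49.4 to 95.8 in fresh and 115 to 143 in pulse samples, with an adjusted p of 0.317. These 2 genes do not stand for their lists of 12 genes each. In fresh samples, only 3 endothelial and 4 leukocyte genes were below background, and in pulse samples 3 and 5. From fresh to pulse samples, 3 endothelial and 2 leukocyte genes fell and 0 of either list rose. In bulk RNA of this kind, fewer cells of a type and less RNA per cell cannot be told apart. Fresh array 1 was the highest of the 3 for 29 of 43 epithelial, 20 of 26 early segment and 11 of 14 proximal tubule genes, and without it 21 epithelial genes rose and 0 fell. Median signals were 103.6 ± 0.59 (SD, n = 3) in fresh and 102.6 ± 1.66 (SD, n = 3) in pulse samples.

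Six2 itself, the transcription factor that keeps progenitors undifferentiated, had signals of 9270, 8752 and 8565 on the fresh arrays and of 889, 975 and 760.3 on the pulse arrays. No array of either group came near the other. The difference was -3.35 ± 0.12 on the log2 scale (SE; adjusted p = 2.16e-11), or 10.2-fold. Cited1, a transcriptional co-activator that marks the least committed progenitors, read 201, 114 and 116 in fresh cells and was below background on all 3 pulse arrays, which makes it at least 3.25-fold lower (adjusted p = 2.48e-07). Crym, a thyroid hormone binding protein, fell from 7236, 6594 and 7491 to 112, 125 and 73.6. This was a 69.5-fold difference (adjusted p = 2.31e-13).

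Several secreted factors of the list fell, though Fgf9 did not pass. Gdnf, the ligand that draws the ureteric bud into branching, had signals of 2817, 2859 and 2662 in fresh cells and of 191, 84.0 and 34.2 after the pulse, a difference of -5.06 ± 0.39 (adjusted p = 7.23e-08). Bmp7, which supports progenitor survival, was 4.14-fold lower. Fgf20, a growth factor of the niche, went from signals of 219.6 to 244 to below background on every pulse array, at least 5.50-fold lower (adjusted p = 1.12e-08). Rspo1 and Rspo3, secreted amplifiers of Wnt signalling, were 4.01-fold and 22.4-fold lower.

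Receptors, adhesion molecules and nuclear factors of the progenitor list changed by different amounts. Itga8, the integrin subunit needed for Gdnf expression, fell by 2.48 on the log2 scale, and Eya1, the phosphatase and co-activator that works with Six2, fell by 2.52. Spock2, a matrix proteoglycan, was 23.2-fold lower. Robo2, the Slit receptor that limits the Gdnf domain, was at least 23.3-fold lower (adjusted p = 4.48e-08), with 1 fresh array at 443 and the others at 1595 and 1401. The homeobox gene Meox1 was at least 11.8-fold lower and its relative Meox2 was 15.1-fold lower. Smaller falls were those of Nr2f2 (-1.03), the zinc finger factor Sall1 (-0.92), the receptor Fgfr1 (-0.79) and the homeobox gene Uncx (-0.76), all on the log2 scale with adjusted p-values from 1.1e-05 to 0.00265.

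A few progenitor genes did not follow. Wt1, which is needed both in the cap and in podocytes, read 3298, 3232 and 3254 in fresh cells and 3670.3, 4214 and 3843 after the pulse, and its difference of 0.26 ± 0.15 did not pass (adjusted p = 0.23). Fgf9, Hoxa11, Hoxd11, Tmem100 and Traf1 did not pass either. Lypd6b rose, from 84.7 to 129 up to 412 to 583 (2.21 ± 0.29, adjusted p = 2.45e-05). Osr1, an early marker of nephrogenic mesenchyme, fell by 2.37 ± 0.66 (adjusted p = 0.0133), but without fresh array 3 or pulse array 3 its adjusted p was 0.0510 or 0.0680. The fall of Dpf3, a chromatin factor, was lost without any 1 of 4 arrays, among them pulse array 1 (adjusted p = 0.179).

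**Figure D1:**
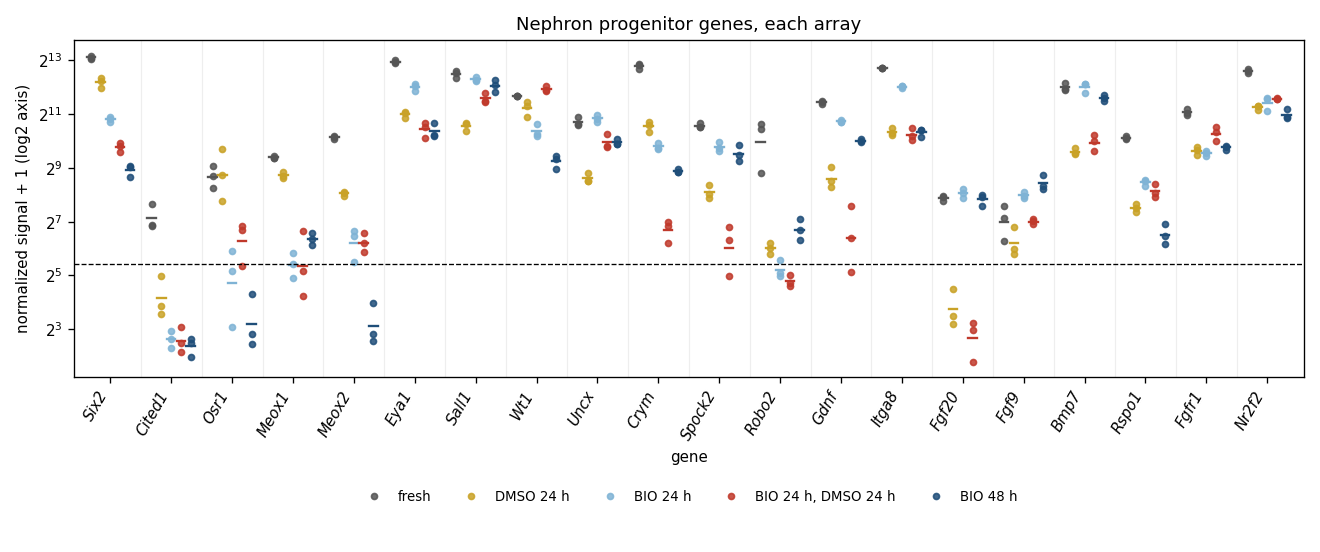
Normalized signals of 20 nephron progenitor genes on each array of fresh cells and of the 4 groups of aggregates (points; bars are means of the log2 values; log2 axis; the dashed line is the background signal of 41.9). Pulse samples lay below fresh samples for Six2 (760.3 to 975 against 8565 to 9270) and for most other genes shown, while Wt1 and Fgf9 did not pass the test.

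The inductive genes were led by Wnt4, the ligand that the cells themselves need to become epithelial. Its signals were 1449.9, 1713 and 1876 in fresh cells and 3127, 4307 and 5056 after the pulse. The groups did not overlap, as for 38.7% of all genes, and the difference was 1.29 ± 0.18 (adjusted p = 4.32e-05), or 2.44-fold. Lhx1, the homeobox factor of the renal vesicle, read 289, 292 and 279.8 in fresh cells and 934, 1243 and 1886 after the pulse. This was a 4.51-fold rise (2.17 ± 0.32, adjusted p = 8.63e-05). Pax8, a paired-box factor of the induced mesenchyme, was 2.02-fold higher, from 866 to 1018 up to 1704 to 2220 (adjusted p = 4.55e-06). When all its probe sets were averaged, its adjusted p was 0.0528.

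Of the Notch ligands that pattern the vesicle, Jag1 had signals of 1864, 1473 and 1299 in fresh and of 5231, 5753 and 6386 in pulse samples (1.92 ± 0.21, adjusted p = 3.51e-06). Dll1 rose 3.16-fold, with pulse array 3 at 1376 and the others at 735 and 654 (adjusted p = 4.99e-05). Lfng, which modifies Notch receptors, and the target Hes5 did not pass, with adjusted p-values of 0.364 and 0.281, though over the mean of its probe sets Hes5 did (adjusted p = 0.0141). The receptor Notch1 and the target Hey1, which belong to the Notch list, rose by 1.13 ± 0.12 and 2.19 ± 0.22 (adjusted p = 3.71e-06 and 1.26e-06). Over that list of 21 genes, 3 rose and 4 fell, beside 13.2% and 12.1% of all genes. Among the falls were Dtx1 (-1.17 ± 0.18, adjusted p = 0.000177) and the nuclear partner Rbpj. In a fit of only the arrays compared 2 rose and 1 fell, and over the mean of probe sets 5 rose and 3 fell. The rise of Hey2 was lost without any 1 of 4 arrays, with adjusted p-values up to 0.121.

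Of the other members that rose, Cdh6, the cadherin of the renal vesicle and of early tubules, had signals of 1008, 983 and 821 in fresh cells against 4998, 4965 and 4411 after the pulse, a 5.12-fold difference with little spread (2.36 ± 0.11, adjusted p = 3.18e-10). Npy, a neuropeptide gene, rose 7.94-fold. The lectin gene Clec18a rose 7.34-fold, Papss2, an enzyme of sulphate activation, 6.46-fold, and the secreted Wnt antagonist Sfrp2 3.08-fold, with adjusted p-values between 4.01e-08 and 3.12e-06. No array of these 4 genes overlapped between the groups.

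Some calls of the list rested on single arrays. Ccnd1, a cyclin of early G1 phase, rose by 0.77 ± 0.21 (adjusted p = 0.0124), and without pulse array 3 its adjusted p was 0.0587. The rise of the POU factor gene Pou3f3 (1.29 ± 0.36, adjusted p = 0.0141) was lost without fresh array 3 or pulse array 3 (adjusted p = 0.0683 and 0.0726), and over the mean of its probe sets the difference was -0.17. Dkk1, a secreted Wnt antagonist, read 211, 299.7 and 804 after the pulse against 134 to 181 in fresh cells, a difference of 1.28 ± 0.39 (adjusted p = 0.0233). Without pulse array 3 it was 0.72 and did not pass (adjusted p = 0.116), and it did not pass without fresh array 2 or 3 either (adjusted p = 0.0756 and 0.0640). Pulse array 3 was the highest of its group for 14 of the 23 genes. Without it, 10 renal vesicle genes rose in place of 13.

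The remaining members did not pass the test or went the other way. Fgf8, the growth factor that vesicle formation needs, was below background in both groups. Bmp2, Cdh4, Greb1, Bmper, Irx1 and Osr2 did not pass, though without fresh array 1 Irx1 did (adjusted p = 0.0210). Bmper, a BMP regulator, read 4708, 4752 and 4950.0 in fresh and 4879, 5601 and 4349 in pulse samples. Cxcr4, a chemokine receptor, went from 787, 686 and 583 to 2.51, 61.1 and 32.9, at least 14-fold lower (adjusted p = 4.97e-05). It was the 1 member of the list that fell.

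**Figure D2:**
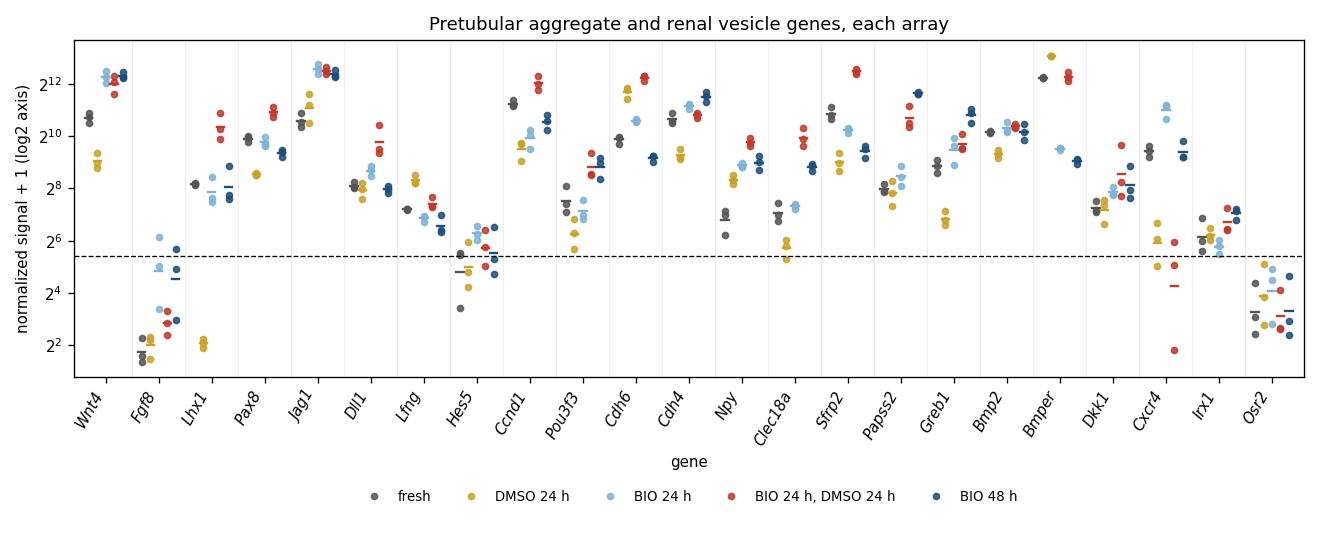
Normalized signals of the 23 measured pretubular aggregate and renal vesicle genes on each array (points; bars are means of the log2 values; log2 axis; dashed line, background signal of 41.9). Lhx1 was higher on the pulse arrays (934 to 1886) than on the arrays of any other group shown, Wnt4 was high after BIO alone too, and Cxcr4 was near or below background after the pulse.

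The 2 days could be separated in part through the other aggregates, which are compared here with the pulse samples directly. After BIO for 24 h, the state in which the pulse samples started their second day, Wnt4 already read 4189, 4877 and 5764, and the difference of the pulse samples from it did not pass (-0.26 ± 0.18, adjusted p = 0.302). With the Gapdh ratio as a covariate Wnt4 was lower (-0.51 ± 0.16, adjusted p = 0.045), and with the beta-actin signal as a covariate it was -1.04 ± 0.31 (adjusted p = 0.0682). Jag1 did not pass in any of these fits (-0.07 ± 0.21, adjusted p = 0.833, without a covariate). Lhx1 instead read 198, 345 and 177 after BIO for 24 h and 192, 214 and 461 after BIO for 48 h, and the pulse samples were 5.63-fold and 4.85-fold above these (adjusted p = 2.98e-05 and 5.97e-05). In aggregates after DMSO for 24 h, Lhx1 was below background at 2.74, 3.27 and 3.80.

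Further renal vesicle genes were higher in the pulse samples than after BIO for 24 h and than after BIO for 48 h. They were Pax8 (2.22-fold and 2.96-fold), Dll1 (2.14-fold and 3.50-fold), Cdh6 (3.10-fold and 8.31-fold), Sfrp2 (4.71-fold and 8.27-fold) and Clec18a (6.14-fold and 2.17-fold). With the beta-actin signal as a covariate, Dll1 did not pass against BIO for 24 h (1.66 ± 0.47, adjusted p = 0.0608). Bmper was 6.72-fold above BIO for 24 h and 9.30-fold above BIO for 48 h, although it did not pass against fresh cells. In all, 13 of 23 genes of the list were higher and 2 lower than after BIO for 24 h, where 8.66% of all genes were higher and 16.2% lower. The 2 lower were Cxcr4 (-6.71 ± 0.71, adjusted p = 4.09e-06) and Fgf8 (-2.0 ± 0.66, adjusted p = 0.0363). With the beta-actin signal as a covariate, neither passed (adjusted p = 0.0644 and 0.718). Against BIO for 48 h, 10 genes of the list were higher and 3 lower, where 9.29% of all genes were higher and 11.1% lower. Papss2 was lower in pulse samples than after BIO for 48 h, at 1306 to 2279 against 3104 to 3289 (adjusted p = 0.0253).

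The arrays of BIO for 24 h stood apart in their beta-actin signal, and with it this comparison moved. The signal was 3706 ± 1487 (SD, n = 3) against 12328 ± 458 in pulse samples, and the median difference of all genes between these groups was -0.16. With the beta-actin signal as a covariate, 9 renal vesicle genes were higher and 1 lower, and 850 genes passed in all in place of 4521. The beta-actin signal is the level of 1 gene and not a measure of RNA quality alone. Contractile genes were also lower in the same group, with a summed signal of 20074 to 23632 against 57347 to 69763 in pulse samples. The Gapdh ratio, of the probe set at the end of the transcript to that at its start, is a measure of RNA integrity. It was 13.4 ± 1.93 (SD, n = 3) after BIO for 24 h and 10.8 ± 1.38 in pulse samples. The parts of RNA quality and of expression in these differences were not tested further. Against fresh cells, whose beta-actin signal was 10041 ± 1789 (SD, n = 3), the beta-actin covariate left 13 renal vesicle genes higher and 1 lower.

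Progenitor genes also differed between the days. Six2 was 2.06-fold lower in pulse samples than after BIO for 24 h and 1.78-fold higher than after BIO for 48 h (adjusted p = 1.35e-05 and 0.000104). The first of these was -0.61 ± 0.24 with the beta-actin signal as a covariate and did not pass (adjusted p = 0.178). Gdnf, Spock2 and Fgf20 went the other way in the second comparison. Gdnf read 1653 to 1760.2 after BIO for 24 h and 987 to 1077 after BIO for 48 h, and pulse samples were 20.4-fold and 12.3-fold lower (adjusted p = 6.03e-07 and 3.63e-06). Fgf20 read 235 to 295 and 191 to 254 in the BIO groups, and pulse samples were at least 6.17-fold and at least 5.33-fold lower (adjusted p = 1.19e-08 and 1.48e-08). In DMSO for 24 h, Fgf20 was below background and Gdnf read 310.4 to 518.

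Genes of the segments that follow the vesicle showed no common direction. Cdh16, the kidney cadherin of tubule epithelium, had the largest rise: 273, 109 and 100 in fresh cells and 2786, 1672 and 1683 after the pulse (3.78 ± 0.88, adjusted p = 0.00436). It was 14.7-fold above BIO for 24 h and 28.1-fold above BIO for 48 h (adjusted p = 0.00403 and 0.000753). With the beta-actin signal as a covariate, the difference from BIO for 24 h was 5.39 ± 1.87 and did not pass (adjusted p = 0.126). Irx3, a homeobox gene of the intermediate segments, rose 8.02-fold, and Emx2, a homeobox gene needed for kidney epithelium, 7.75-fold, with adjusted p-values of 2.07e-08 and 4.75e-07. Against BIO for 48 h, neither passed, with differences of 0.05 ± 0.21 and 0.47 ± 0.27 (adjusted p = 0.909 and 0.255). Wfdc2, a secreted protease inhibitor of epithelia, rose 2.65-fold.

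In the same list, Ppp1r1a, a phosphatase inhibitor, was at least 5.68-fold lower, the zinc transporter gene Slc39a8 3.01-fold lower and Mecom 1.98-fold lower. Over the mean of their probe sets, Slc39a8 and Mecom did not pass (adjusted p = 0.231 and 0.0588). Sostdc1, a secreted BMP and Wnt antagonist, was at least 2.58-fold lower (adjusted p = 0.0263), a call lost without fresh array 1 or 2 or pulse array 2 or 3, with adjusted p-values up to 0.111. Hnf4a, the proximal tubule factor, did not pass (-0.31 ± 0.74, adjusted p = 0.822), with pulse arrays at 179.5, 81.2 and 279. Gata3, of the distal end, was below background on all 6 arrays. Of the proximal tubule list, 1 of 14 genes rose and 2 fell, beside 13.2% and 12.1% of all genes. Without fresh array 1 or fresh array 2, 0 fell. Slc34a1 had adjusted p-values of 0.163 and 0.0543 there, and Slc3a1 of 0.0982 and 0.064. Without pulse array 3, 2 rose, and without pulse array 1 or 2, 1 fell. Of the loop and distal tubule list, 0 of 12 rose and 2 fell, and 5 of the 12 were below background in both groups. Of the proximal tubule genes, the 1 that rose, the endocytic receptor gene Lrp2, turned to -0.25 over the mean of its probe sets.

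Podocyte genes were mixed against fresh cells, with 4 of 17 higher and 3 lower, beside 13.2% and 12.1% of all genes. Efnb2, an ephrin of the glomerulus, rose 3.48-fold (1.80 ± 0.09, adjusted p = 3.18e-10), and Plce1, a phospholipase of the podocyte, 1.55-fold. The rise of the chloride channel gene Clic5 (3.45-fold) was lost without any 1 of 5 arrays, with adjusted p-values up to 0.114, and that of Dach1 without pulse array 3 (adjusted p = 0.0727). The transcription factor genes Lmx1b, Foxc1 and Tcf21 fell by 1.03, 0.86 and 0.59 on the log2 scale. Over the mean of its probe sets, Tcf21 was at -0.20 and did not pass (adjusted p = 0.347), and Dach1 did not pass either (adjusted p = 0.326). Nphs1, the slit diaphragm gene nephrin, read 53.6 to 63.0 after the pulse and 50.1 to 71.2 in fresh cells. Against BIO for 48 h, 10 of the 17 were higher and 1 lower, where 9.29% of all genes were higher and 11.1% lower. Wt1 was 6.45-fold and Foxc1 5.81-fold higher there (adjusted p = 2.49e-09 and 4.24e-12).

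Of 43 epithelial genes, 22 rose and 0 fell, beside 13.2% and 12.1% of all genes. The median difference was 0.56 on the log2 scale. Against fresh cells and with no test, it was 0.25 after DMSO for 24 h and 0.32 after BIO for 24 h. After BIO for 48 h it was 0.60, so the rise over the list was not particular to the pulse. Cdh1, the E-cadherin gene, had signals of 281, 102 and 91.5 in fresh cells and of 1133, 1068 and 2205 after the pulse (3.32 ± 0.60, adjusted p = 0.000568), a 10.0-fold rise. It read 60.9 to 96.3 after BIO for 24 h and 202 to 371 after BIO for 48 h, and the pulse samples were 18.8-fold and 4.70-fold above these (adjusted p = 7.87e-05 and 0.0132). Lama1, the laminin chain of the nascent tubule basement membrane, rose from 307, 209.8 and 111 to 1021, 1029 and 1309. Its partners Lamb1, Lamc1 and Lama5 and the collagen genes Col4a1 and Col4a2 also rose, as did the laminin receptor gene Itga6 (1.59 ± 0.17, adjusted p = 3.78e-06).

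Junction genes differed in how they stood under continued BIO. Cldn7, a claudin of tight junctions, read 73.0, 28.4 and 38.3 in fresh cells and 272, 162 and 393 after the pulse (2.56 ± 0.52, adjusted p = 0.00162). After BIO for 48 h it read 636, 943 and 1006, and pulse samples were 3.26-fold below that (adjusted p = 0.0288). Over the whole epithelial list, 6 genes were higher and 12 lower than after BIO for 48 h. Of all genes, 9.29% were higher and 11.1% lower in that comparison. Epcam and the keratin gene Krt8 did not pass against fresh cells (adjusted p = 0.154 and 0.649), while Krt19 rose 5.56-fold.

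Of 15 mesenchymal genes, 6 rose and 5 fell, beside 13.2% and 12.1% of all genes. Without fresh array 2 or pulse array 3, 3 fell, and in a fit of only the arrays compared 3 rose and 3 fell. The intermediate filament gene Vim went from 4830 to 5306 up to 10121 to 10833 (1.07 ± 0.13), and the fibronectin gene Fn1 rose 2.74-fold. Cdh11, Cdh2 and the repressor genes Zeb1, Zeb2 and Snai2 fell, Zeb1 by 1.0 ± 0.15 (adjusted p = 9.77e-05). Twist1 rose by 1.01 ± 0.28, and without fresh array 2 or pulse array 3 its adjusted p was 0.0841 or 0.0640.

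**Figure D3:**
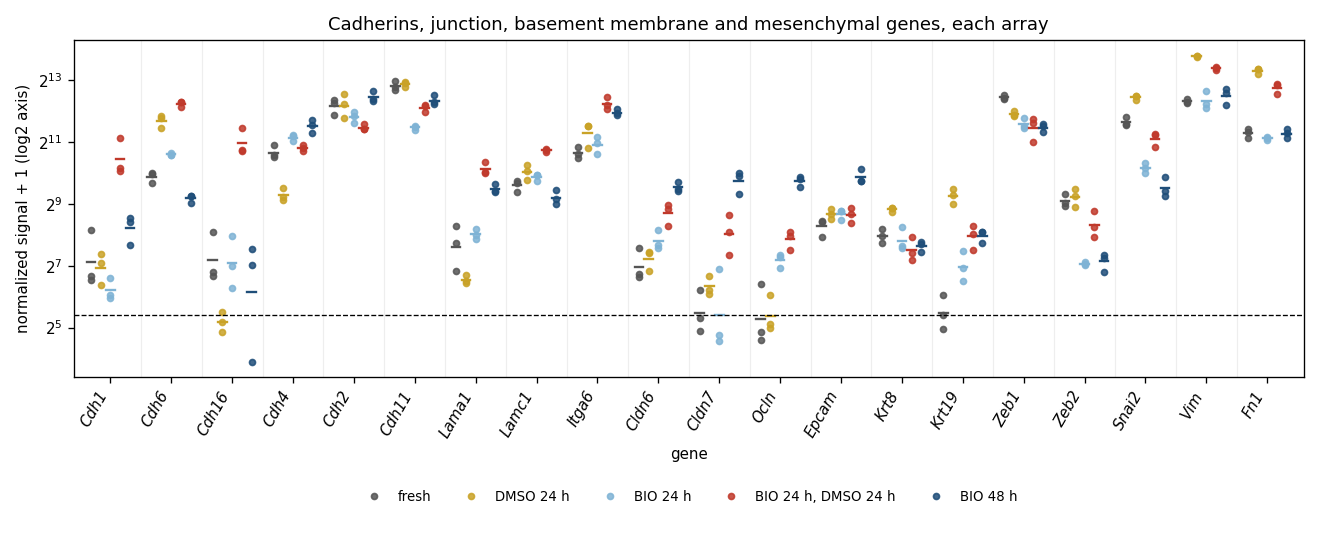
Normalized signals of 20 cadherin, junction, basement membrane and mesenchymal genes on each array (points; bars are means of the log2 values; log2 axis; dashed line, background signal of 41.9). Cdh1 and Cdh16 were higher on the 3 pulse arrays than on any other array shown, Cldn7 was highest after BIO for 48 h, and Vim and Fn1 were above their fresh levels after the pulse.

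The repressors Snail and Zeb bind the letters CACCTG, and the promoters of the epithelial genes held them often. In RefSeq promoters of build GRCm38.p6, read over the 250 bases before the start site on both strands, CACCTG was in 17.2% of all 32851 promoters, in 20 of 37 promoters (54.1%) of the epithelial list and in 0 of 25 of the progenitor list. The table held promoters for 30 of the 43 epithelial and 17 of the 27 progenitor genes. The 20 promoters belong to 18 genes, of which 10 rose, while over the whole list 22 of 43 rose. The Cldn7 promoter, chr11:69965171-69965420 on the plus strand, is shown because it holds 2 matches and its gene rose. Matches, on either strand, are in capitals, and a match is no evidence of binding.
Cldn7: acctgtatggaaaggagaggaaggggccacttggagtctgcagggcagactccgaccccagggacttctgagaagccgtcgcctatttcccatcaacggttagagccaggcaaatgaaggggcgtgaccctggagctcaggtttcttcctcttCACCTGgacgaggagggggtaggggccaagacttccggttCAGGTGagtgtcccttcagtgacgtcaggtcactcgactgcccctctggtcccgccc

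Of the 27 genes of the Wnt target and feedback list, 12 were lower and 6 higher after the DMSO day than after BIO for 24 h. Of all genes, 16.2% were lower and 8.66% higher. These 2 shares are from the fit without a covariate. With the beta-actin signal as a covariate, 6 genes of the list were lower and 1 higher. Axin2, the feedback inhibitor read as the standard Wnt target, had signals of 3733, 3798 and 3056 after BIO for 24 h and of 520.4, 677 and 698 after the DMSO day. Fresh cells read 1131, 1185 and 1111. The pulse samples were below both, by 5.60-fold against BIO for 24 h and 1.82-fold against fresh (adjusted p = 2.95e-08 and 0.00109). Sp5, a transcription factor under direct Wnt control, went from 1659.6 to 2208 after BIO for 24 h to 44.1, 72.1 and 39.5, against 296, 269 and 258 in fresh cells (-2.43 ± 0.46, adjusted p = 0.00091). Notum, the Wnt deacylase, was 24.8-fold below BIO for 24 h and did not pass against fresh cells, at 157, 174 and 127 against 218, 157 and 189.

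Some targets stayed above the fresh level. Lef1, the nuclear partner of beta-catenin, read 992, 1074 and 1118 after the pulse, above the 368, 388 and 260.4 of fresh cells (1.66 ± 0.17, adjusted p = 2.3e-06) and under the 1741 to 2517 after BIO for 24 h. The second of these differences, -1.04 ± 0.17 (adjusted p = 0.000368), was -0.30 ± 0.31 with the beta-actin signal as a covariate and did not pass (adjusted p = 0.681). Bambi, a decoy receptor for TGF-beta family ligands, rose 4.78-fold against fresh and was 2.17-fold above BIO for 24 h (adjusted p = 6.73e-08 and 0.00017). With the beta-actin covariate the second was 1.33 ± 0.37 (adjusted p = 0.0534). Over the Wnt list of 27 genes, 5 rose and 7 fell against fresh cells, beside 13.2% and 12.1% of all genes. The list's median was 0.19, and it turned to -0.21 with dim genes left out and to -0.05 over the mean of probe sets. Against BIO for 48 h, 4 were higher and 15 lower, where 9.29% of all genes were higher and 11.1% lower. Sp5 was 38.4-fold below BIO for 24 h. With either covariate, Axin2, Sp5 and Notum still passed as lower than after BIO for 24 h, with adjusted p-values up to 0.0211.

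The TCF and LEF factors bind CTTTGAA or CTTTGAT. On either strand of the 250 bases before the start site, 7.48% of all promoters held one of these words, as did 3 of 25 promoters (12.0%) of the Wnt list and 1 of 20 of the renal vesicle list, which cover 16 of 27 and 17 of 23 genes. The promoters of Sp5 (chr2:70474673-70474922, plus strand) and Dkk1 (chr19:30549497-30549746, minus strand), RefSeq build GRCm38.p6, are shown 5′ to 3′ because both hold a match, in capitals, and their genes differed in opposite directions from fresh cells.
Sp5: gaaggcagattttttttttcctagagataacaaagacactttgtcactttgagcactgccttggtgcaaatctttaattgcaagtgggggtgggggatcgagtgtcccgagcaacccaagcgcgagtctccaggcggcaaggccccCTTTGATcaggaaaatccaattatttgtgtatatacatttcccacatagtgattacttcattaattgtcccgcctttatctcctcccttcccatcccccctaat
Dkk1: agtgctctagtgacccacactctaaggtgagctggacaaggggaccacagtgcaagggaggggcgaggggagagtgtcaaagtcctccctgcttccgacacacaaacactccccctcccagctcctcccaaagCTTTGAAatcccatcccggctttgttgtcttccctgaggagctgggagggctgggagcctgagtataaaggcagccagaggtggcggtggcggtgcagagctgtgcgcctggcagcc

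Contractile and serum response genes had the highest median of all lists, 1.52 on the log2 scale. In this list 13 of 17 genes rose and 1 fell, the latter by at least 2-fold. Tagln, an actin-binding protein of smooth muscle, went from 101, 39.2 and 44.8 to 3514, 3504 and 2126, 51.8-fold (adjusted p = 1.38e-09). Ccn2, a matricellular protein induced by serum and by YAP, went from 219, 172 and 164 to 8273, 9334 and 7568 (5.50 ± 0.11, adjusted p = 2.95e-14). Acta2, smooth muscle actin, rose 3.97-fold, Actg2 7.10-fold, and Ankrd1 at least 10.6-fold. After DMSO for 24 h these genes were high too, with Tagln at 6304 to 6681 and Ccn2 at 9910.5 to 11223. Under BIO they were lower than in pulse and DMSO samples. Ccn2 read 1029 to 1217 after BIO for 24 h and 937 to 958 after BIO for 48 h, still above the 164 to 219 of fresh cells. Against these groups, 16 and 15 of the 17 genes of the list were higher in pulse samples and 0 were lower.

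**Figure D4:**
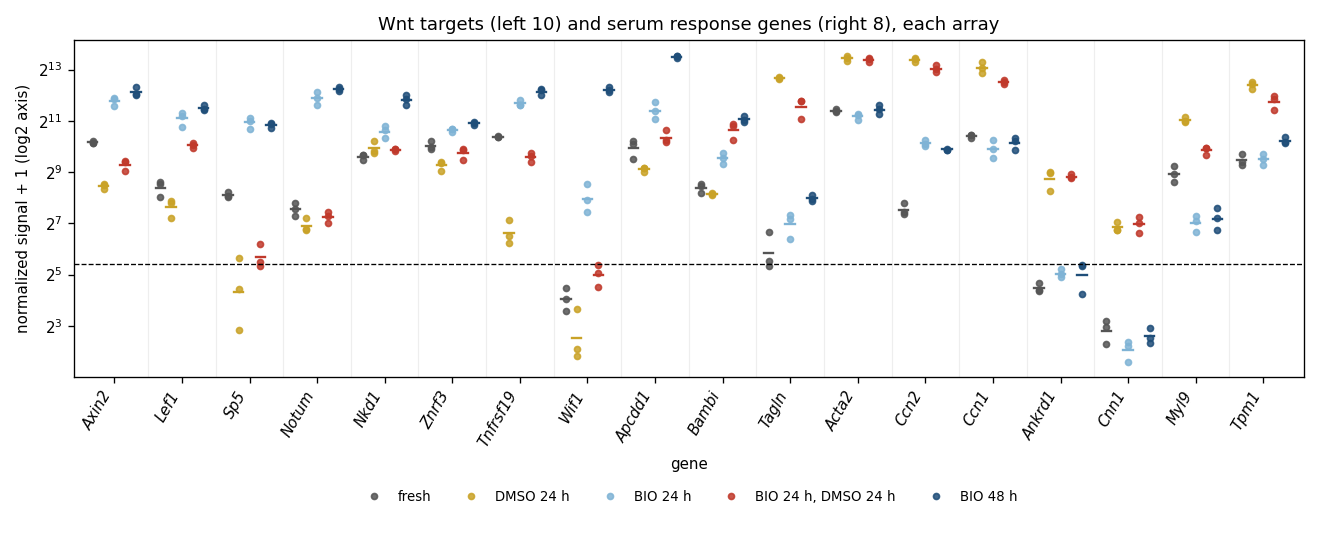
Normalized signals of 10 Wnt targets and 8 contractile and serum response genes on each array (points; bars are means of the log2 values; log2 axis; dashed line, background signal of 41.9). Axin2, Sp5 and Notum were high under BIO and low in pulse samples. Tagln, Acta2 and Ccn2 were high in pulse and DMSO samples and lower under BIO.

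The TEAD factors, partners of YAP, bind CATTCC. On both strands of the 250 bases before the start site, 12.6% of all promoters held it, against 9 of 15 promoters (60%) of the contractile list. Of those 9 genes 8 rose, while over the whole list 13 of 17 rose. The 15 promoters belong to 14 of the 17 genes. The CArG box of serum response factor was in 3 of the 15 (20.0%), against 1.47% of all. The Ankrd1 promoter (chr19:36119845-36120094, minus strand, RefSeq build GRCm38.p6), shown 5′ to 3′, holds CATTCC 2 times, written in capitals as it reads on this strand. That a match is there does not show that a factor was bound.
Ankrd1: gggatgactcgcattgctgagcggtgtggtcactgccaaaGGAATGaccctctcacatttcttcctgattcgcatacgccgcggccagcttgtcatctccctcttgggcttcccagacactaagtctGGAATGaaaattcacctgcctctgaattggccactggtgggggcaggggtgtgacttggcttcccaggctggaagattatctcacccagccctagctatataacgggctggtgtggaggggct

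Of the other signalling lists, the BMP and TGF-beta list rose most evenly, with 12 of 19 higher and 0 lower. Over all genes, 13.2% were higher and 12.1% lower. The rise of the BMP and TGF-beta list was not particular to the pulse. The list's median difference from fresh was 0.82 after the pulse and 0.88 after DMSO for 24 h. It was 0.28 after BIO for 24 h and 0.82 after BIO for 48 h, with no test. Inhba, the activin A subunit, was below background in fresh cells (9.19 to 10.8) and read 2725, 2734 and 1877 after the pulse, at least 56.2-fold higher (adjusted p = 1.04e-10). The antagonist genes Grem1 and Fst rose 7.39-fold and 5.52-fold, and the ligand gene Bmp6 at least 5.35-fold. Of the target genes Id1 to Id4, all rose, Id1 from 565, 292 and 509 to 1415, 1661 and 1421 (1.77 ± 0.20, adjusted p = 5.73e-06). In the FGF list, 8 of 15 fell and 4 rose. The ETS factor genes Etv4 and Etv5 were 5.57-fold and 3.30-fold lower, while the receptor genes Fgfr3 and Fgfr4 rose 2.17-fold and 2.23-fold. Over the mean of their probe sets, neither receptor passed (adjusted p = 0.212 and 0.0771), and over such means 2 genes of the list rose and 3 fell.

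Stromal genes fell in 10 of 18 cases and rose in 4, beside 12.1% and 13.2% of all genes. Penk, an opioid precursor of medullary stroma, was 6.40-fold lower and Lum, a matrix proteoglycan, 4.32-fold lower. Foxd1 fell by 0.92 ± 0.15 (adjusted p = 0.000199), with pulse samples at 896 to 1299. Pdgfrb, the receptor of mural and stromal cells, instead rose 2.95-fold, with pulse arrays at 1424, 1827 and 2730 (adjusted p = 0.000158). In the ureteric bud list, 2 of 15 genes rose and 1 fell, Gfra1, the co-receptor of GDNF, from 5029 to 5517 down to 561 to 815. The bud's own receptor Ret read 95.2 to 112 in fresh and 100.2 to 126 in pulse samples. Endothelial genes fell in 3 of 12 cases and leukocyte genes in 2 of 12, and 0 of either list rose. Without fresh array 3 or pulse array 1, 1 endothelial gene rose, and the leukocyte falls were 1 without fresh array 1 or 3 or pulse array 1 or 2. Without pulse array 1, 1 leukocyte gene rose. Without fresh array 1 or pulse array 1, 1 ureteric bud gene rose.

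Among the 14 genes with the largest rises, Ptgs2, the inducible cyclooxygenase, was at least 21.1-fold higher, Lgals3, a galectin, at least 14.3-fold, the TEAD cofactor gene Vgll3 53.2-fold, the cytokine receptor gene Osmr 22.9-fold, and Thbs1, a matrix glycoprotein, 20.5-fold. The small heat shock protein genes Cryab and Hspb8 rose 40.4-fold and 15.0-fold, Anxa1 17.2-fold and the tissue factor gene F3 13.8-fold. Ms4a2 was at least 40.7-fold higher (adjusted p = 4.74e-07). Hs3st3b1, a heparan sulphate sulphotransferase, stood apart in the other groups: it rose from 115 to 156 up to 1771 to 2393 and read 36.3 to 74.0 after DMSO for 24 h and 906 to 1237 after BIO for 48 h.

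Of the 14 largest falls, several were outside the progenitor list. Nxph1, a neurexin ligand, was 57.0-fold lower, at 2680.2 to 2869 against 30.4 to 68.8 (adjusted p = 1.29e-10). Nell1 was 33.6-fold, Dcx, a microtubule binding protein of migrating neurons, 22.3-fold, Sema3d 14-fold and the dynein chain gene Dync1i1 14.8-fold lower. The matrix genes Mfap4 and Sbspon were at least 20.2-fold and at least 19.0-fold lower. Nxph1 and Sema3d were above their fresh level after DMSO for 24 h, at 4480.1 to 4555 and 2924 to 3560.4, and both were under 200 on each array of the 3 aggregate groups that had received BIO. Dync1i1 read 1146 to 1272 after BIO for 48 h and 1227 to 1301 in fresh cells.

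**Figure D5:**
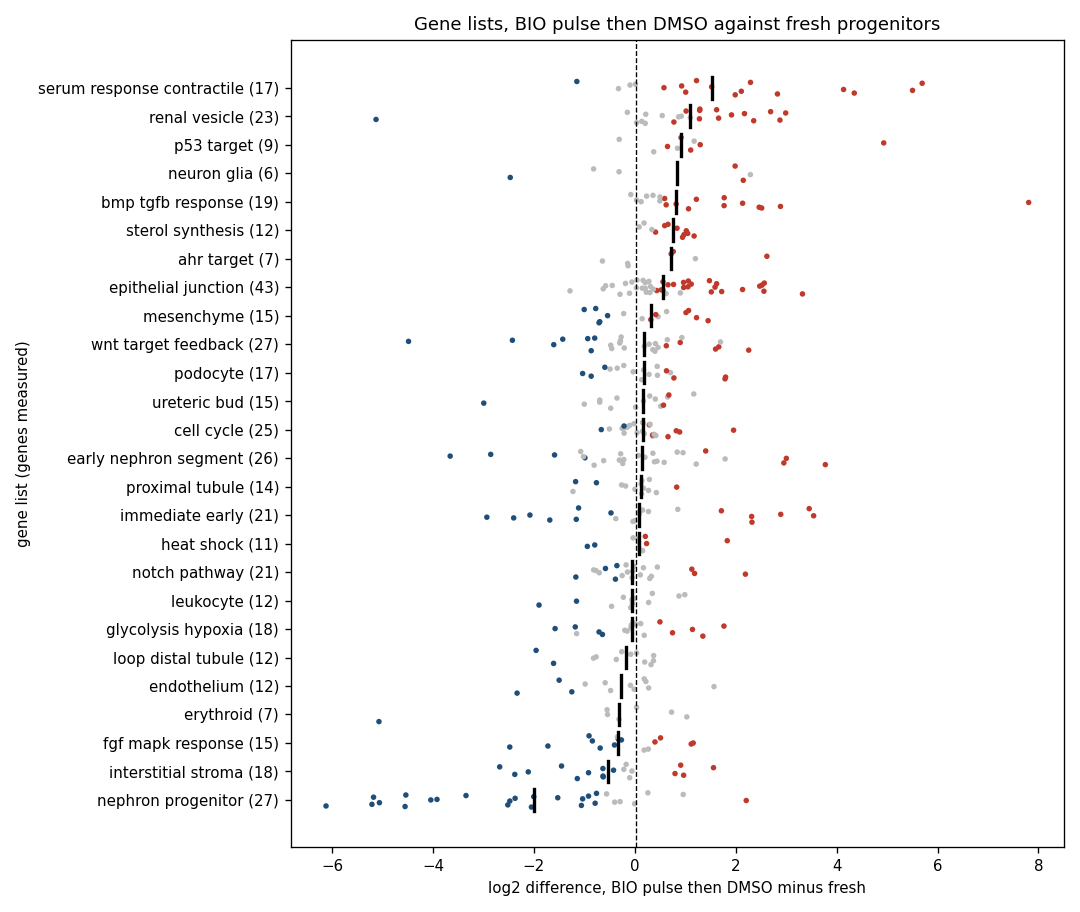
Log2 differences, pulse minus fresh, of every measured gene in 26 lists (points: red, rose; blue, fell; grey, did not pass; vertical bars, list medians; the number of genes measured is in brackets). The contractile and renal vesicle lists have the highest medians, 1.52 and 1.10, and the progenitor list the lowest, -2.0.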

How the data were processed

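RNA of 21 samples in 7 groups of 3 was amplified in 2 rounds, labelled with biotin and measured on mouse arrays of 45101 probe sets, per the labels' protocols. The deposited values are linear signal intensities from 0.1 to 18025; for the software and scaling behind them, the sources used here give nothing. Values were taken as log2(value + 1) and quantile normalized, and signals in the text are these normalized values on the linear scale. Each gene was represented by its brightest probe set: 34742 probe sets were named through the RefSeq gene table and 203 through the platform table only, and 9160 with no gene and 932 with several were left out. One mean per group was fitted over all 21 arrays with limma 3.58.1 (R 4.3.3; 14 residual degrees of freedom), moderated with eBayes and adjusted by Benjamini-Hochberg over 18193 genes at 0.05; ± in differences is the SE. Because a pseudocount of 1 was added, differences of low genes are understated. Of 27 probe sets for bacterial control RNA, the 95th percentile of signals, 41.9, was taken as background; in a group whose mean lay below it, each array under it was set to it before averaging, and the fold is given as "at least". With 3 arrays a group, their number limits the precision.

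Tested on simulated data with this design, planted log2 differences of 0.5, 1 and 2 were recovered in 34, 90 and 100% of cases, with 17 false calls among 175 over 18193 genes. They were planted only in genes above the median fresh level, so these shares do not cover dim genes. Far fewer genes were planted than passed in the data. The named genes were the 14 largest rises and falls above background without overlap, every measured renal vesicle gene, every called progenitor, early segment and podocyte gene, and up to 4 of each other list. The rest (Axin2, Notum, Acta2, Foxd1, Ret, Pecam1, Ptprc, Wnt targets, junction and other genes outside that rule) were added after their values were seen. The members and lists were chosen with earlier results of these data known. Replicate numbers in the labels were checked for pairing: the correlations of same-numbered deviations between fresh and pulse samples were 0.0569, -0.0024 and 0.0708, so the numbers were not used as pairs. Arrays shared at most 0.288% of values exactly. Alternatives were other scalings, pseudocount, filter, probe set summary, models, covariates and leaving out each array. In RefSeq promoters, 6 motifs were searched with Python 3.11.15: the 4 described in the report, the ETS word CCGGAAG (6.91% of all promoters, 1 of 20 renal vesicle and 5 of 37 epithelial promoters) and the HNF1 site (3 of 32851 promoters, none of them of the lists searched).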

Additional observations from a re-analysis of the deposited data

How the results depend on the processing

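Against fresh cells, 4602 genes passed. Fitting only the arrays compared gave 2870 (1450 higher, 1420 lower), and asking for at least a 2-fold difference gave 1630. The replicate number as a block gave 4372 genes (2300 higher, 2072 lower), of which 4308 were shared, and leaving out 1 array gave 3752 to 4135 (1890 to 2349 higher, 1736 to 1956 lower). Against BIO for 24 h, where 4521 passed (1575 higher, 2946 lower), fitting only the arrays compared gave 2559 (979 and 1580), the deposited scaling 1981 higher and 1783 lower, median centring 1364 and 3660, the Gapdh ratio as a covariate 1903 lower, and the beta-actin signal as a covariate 850 (564 and 286). Against BIO for 48 h, where 3711 passed, fitting only the arrays compared gave 1820 (843 and 977). With the block, these 2 comparisons gave 4303 and 3532 genes. Of 153 named genes, 17 lost their call without 1 array and 24 in another setting. The differences of Pou3f3 and Lrp2 reversed over the mean of probe sets, to -0.17 and -0.25; the cause was not tested. Among 87 named genes with further probe sets, 52 had another that passed in the same direction and 0 in the opposite one. Against fresh cells, 10 to 14 genes of the renal vesicle list were higher and 1 lower in the settings run on one value per gene, with medians from 1.0 to 1.28.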

Other observations

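Several groups of genes that respond to culture or stress differed between pulse and fresh samples. Beside the counts that follow, 13.2% of all genes rose and 12.1% fell. Of 9 p53 target genes, 5 rose and 0 fell: Pmaip1, an inducer of apoptosis, was at least 8.17-fold higher (adjusted p = 4.66e-08), and Phlda3 and Ccng1 rose 2.46-fold and 2.15-fold. Pulse array 3 was the lowest of its group for all 9 of these genes. The rise was not particular to the pulse. The median difference of the p53 list from fresh was 0.92 after the pulse and 1.60 after DMSO for 24 h. After BIO for 24 h and 48 h it was 1.62 and 0.97, with no test. Cdkn1a, a cell cycle inhibitor and itself a p53 target, rose from 1099 to 1133 up to 3464 to 5102 (1.96 ± 0.11, adjusted p = 2.95e-09), below its level of 8771 to 9800.4 after BIO for 24 h. The proliferation genes Mki67 and Top2a did not pass (adjusted p = 0.715 and 0.401), and of 25 cell cycle genes 6 rose and 2 fell, while with any 1 of the 6 arrays left out 0 or 1 fell (0 without fresh array 2 or 3 or pulse array 2). In the sterol synthesis list, 9 of 12 rose and 0 fell, with Idi1 at 2565, 2722 and 2773 in fresh and 4768, 5115 and 6626 in pulse samples (1.02 ± 0.11, adjusted p = 3.92e-06).

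Immediate early genes split. Fos and Fosb were 5.28-fold and 7.63-fold lower, Fos from 8023 to 8205 down to 1098 to 1968, while Fosl2 rose 11.7-fold and Ier3 7.42-fold (adjusted p = 3.61e-08, 6.15e-08, 9.39e-10 and 4.58e-07). Of the 21 genes, 6 rose and 7 fell, and pulse array 2 was the highest of its group for 18 of them and pulse array 3 the lowest for 15. Cyp1b1, a target of the aryl hydrocarbon receptor, rose from 914 to 1043 up to 5277 to 7035 (2.62 ± 0.11, adjusted p = 1.27e-10), and 3 of the 7 genes of that list rose. The rise of Nqo1 was lost without any 1 of 4 arrays (adjusted p up to 0.121). The list's median difference from fresh was 0.72 after the pulse and 0.59 after DMSO for 24 h. After BIO for 24 h and 48 h it was 0.64 and 0.87, with no test. In the glycolysis and hypoxia list, 5 of 18 rose and 4 fell: Pfkp rose 3.40-fold and Pdk1 was 2.99-fold lower. Of 11 heat shock genes, 3 rose and 2 fell, with Hspb1 3.56-fold higher and Hspa1a 1.92-fold lower. Without fresh array 1 or 3 or pulse array 2 or 3, 1 rose, and Hspa5 lost its call without any 1 of the 6 arrays (adjusted p up to 0.12) and with the replicate block (adjusted p = 0.0592). Of 7 erythroid genes, Alas2, the heme synthesis enzyme of red cells, fell, at least 4.07-fold. Without fresh array 1 or pulse array 2, 2 erythroid genes fell, and without fresh array 2, 2 rose. Of 6 neuronal and glial genes 2 rose and 1, Elavl4, fell 5.54-fold.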
